A study of Mus musculus with 6 samples.

Results

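Genes of the cells that wrap blood vessels, 9 in all, were followed in hearts of sham-operated and adrenalectomized mice. The 9 genes were found by name among the noncontrol probes of the arrays. They comprise 4 genes of the contractile smooth muscle cell (Tagln, Myh11, Acta2 and Cnn1), 3 genes of the pericyte (Rgs5, Abcc9 and Pdgfrb), and Smtn and Cspg4, which were kept outside both groups. They held 19 of the 41174 noncontrol probes, which carry 28786 gene names. Of these 19 probes, 17 were among the 23990 that were bright enough to test, and all 9 genes were among the 16949 genes tested.

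All animals were male C57BL/6 mice with no transgene named in the labels. Surgery was at 1 month of age, and hearts were taken 6 months after it. A further label gives 6 months as their age, so it is not settled whether 6 months counts from birth or from surgery. Of the 6 biological replicates, 3 were sham-operated controls with their adrenal glands in place and 3 were adrenalectomized. Adrenalectomy removes the main source of glucocorticoids, aldosterone and adrenaline, and the labels name no hormone or salt supplement. Total RNA of the heart was amplified, labelled with Cy3 and hybridised to 1-colour Agilent arrays, 1 array per mouse.

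Contractile smooth muscle cells form the wall of arteries and veins, and their force comes from smooth muscle myosin sliding on actin, with calponin, transgelin and smoothelin bound to the filaments. Transcription of many of these genes is driven by serum response factor together with its coactivator myocardin. Pericytes sit on capillaries, the most abundant vessels of the heart, depend on platelet-derived growth factor B from the endothelium through the receptor PDGFR-β, and carry a potassium channel that opens when ATP is low.

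A level is the log2 of the processed signal of a probe minus the log2 of the 75th percentile of its array, so that 0 is the brightness of that percentile. A difference is adrenalectomized minus sham on that log2 scale, fitted with limma and adjusted by Benjamini-Hochberg over all genes, with 0.05 as the threshold. A gene is represented by its brightest tested probe, and values of different probes are not on a common scale. The arrays correlated with each other at r = 0.982 to 0.991 over the tested genes. Of noncontrol spots, 59.8%, 57.7% and 60.2% were well above background in sham and 60.5%, 66.8% and 63.2% in adrenalectomized hearts. This share was lowest in sham replicate 2. The 8 cardiomyocyte markers listed for the heart (Myh6 and Tnnt2 among them) were all bright enough to test. One slide held all 3 sham arrays and adrenalectomized replicate 1, and the other held adrenalectomized replicates 2 and 3. The recorded scan dates split the arrays in the same way. Sham replicate 2 stood apart in the contractile genes, so each result that rests on it is given with and without that mouse.

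None of the 9 genes passed the adjusted threshold, which 7 of 16949 genes (0.0413%) passed, 5 of them higher and 2 lower after adrenalectomy. At an unadjusted p under 0.05, 1 of the 9 genes was lower (Tagln) and 1 was higher (Abcc9), beside 6.12% and 6.07% of all genes. The 2 groups of arrays did not overlap for 3 of the 9 genes, lower for Tagln and Rgs5 and higher for Abcc9, beside 18.2% of all genes (8.15% lower and 10.1% higher). The fitted difference was below 0 for 6 of the 9 genes, beside 44.2% of all genes. The median difference was -0.05 over the 9 genes and 0.03 over all genes. Over probes, 0 of 17 passed the threshold, beside 0.00417% of all probes. With 3 mice against 3, the smallest p of an exact two-sided permutation test is 0.1 for any one gene.

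**Figure D1:**
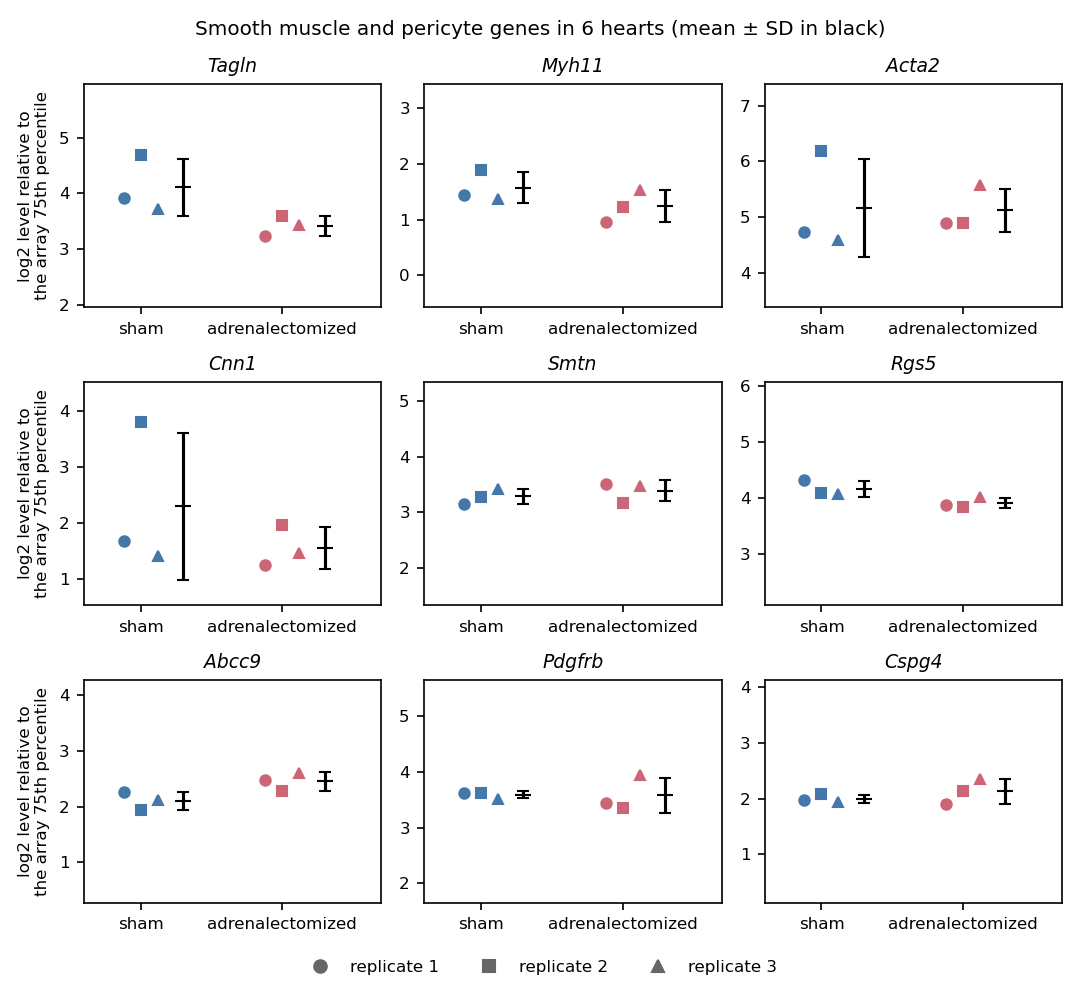
Level of each of the 9 genes (y axis, log2 units above the array's 75th percentile) in 3 sham hearts (blue) and 3 adrenalectomized hearts (red), with the mean ± SD in black and every panel spanning the same number of log2 units. Squares mark replicate 2: in the sham group it is the highest of all 6 points for Tagln, Myh11, Acta2 and Cnn1, and it lies among the other points for Smtn, Rgs5, Pdgfrb and Cspg4.

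Tagln encodes transgelin (SM22α), an actin-binding protein that marks contractile smooth muscle. Its brighter probe, A_51_P450527 (mm7 chr9:45888137-45888196, minus strand), read 3.92, 4.68 and 3.72 in the sham hearts and 3.23, 3.59 and 3.43 in the adrenalectomized hearts. All 3 adrenalectomized hearts lay below all 3 sham hearts, and sham replicate 2 was the highest. The mean was 4.11 ± 0.51 (SD, n = 3) in sham and 3.42 ± 0.18 (SD, n = 3) in adrenalectomized hearts. The difference was -0.69 with a standard error of 0.25 and a 95% confidence interval of -1.29 to -0.09, a level 1.61-fold higher in sham, and its adjusted p in limma was 0.360. The exact permutation p was 0.1, the smallest that this design allows. Without sham replicate 2 the difference was -0.40.

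A second Tagln probe lies upstream in the same transcript and is shown because it gave a smaller difference than the first (60 bases in the sense of the transcript, mm7 chr9:45888956-45889015, minus strand, no part capitalized).
Tagln A_52_P517683: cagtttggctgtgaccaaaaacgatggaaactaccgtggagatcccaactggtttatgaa

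This probe read -0.08, 1.80 and 1.14 in sham and 0.63, 0.76 and 0.62 in adrenalectomized hearts. The groups overlapped, with sham replicate 1 the lowest of the 6 arrays and sham replicate 2 the highest. Its difference of -0.28 had a standard error of 0.43, and its adjusted p over all probes was 0.808. Its difference was 0.14 without sham replicate 2, so its direction depended on that mouse, which that of the brighter probe did not. Neither Tagln probe passed the threshold.

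Myh11 encodes the smooth muscle myosin heavy chain, the motor protein whose presence defines the lineage most narrowly. Its only probe, A_51_P362429, has 60 bases that extend over 2925 bases of the genome (mm7 chr16:13741638-13744562, minus strand), so it crosses at least one intron. Levels were 1.45, 1.90 and 1.38 in sham and 0.96, 1.23 and 1.54 in adrenalectomized hearts. The groups overlapped because adrenalectomized replicate 3 was above sham replicates 1 and 3. The difference of -0.33 had a standard error of 0.20 and a 95% confidence interval of -0.80 to 0.14 (limma, adjusted p = 0.542). It was -0.17 without sham replicate 2. With the slide as a block it was -0.61, where only adrenalectomized replicate 1 is compared with the sham hearts.

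Cnn1 encodes calponin 1, which binds actin and myosin and is largely restricted to differentiated smooth muscle. Of the 9 genes, Cnn1 had the widest spread between mice, 2.57 log2 units over the 6 arrays. Its probe A_51_P350817 (mm7 chr9:21988172-21988231, plus strand) read 1.67, 3.81 and 1.40 in sham and 1.24, 1.97 and 1.46 in adrenalectomized hearts. Sham replicate 2 was 2.26 above the mean of the other 5 arrays, which all lay below 2. The difference was -0.74 with a standard error of 0.61 (95% confidence interval -2.18 to 0.69, limma adjusted p = 0.654). Without sham replicate 2 it was 0.01, so the mean difference of Cnn1 was carried by 1 mouse.

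Acta2 encodes smooth muscle α-actin, the most abundant actin of the vessel wall. Its brightest probe, A_52_P420504, was printed on 10 spots of each array (mm7 chr19:33942803-33942862, minus strand). It read 4.74, 6.18 and 4.58 in sham and 4.89, 4.90 and 5.57 in adrenalectomized hearts. Sham replicate 2 was again the highest array, and adrenalectomized replicate 3 the next. The difference was -0.05 with a standard error of 0.43 (95% confidence interval -1.07 to 0.97, limma adjusted p = 0.976). Without sham replicate 2, the sham mean of this probe was 4.66, against 5.12 in adrenalectomized hearts, a difference of 0.46, so its direction depended on that mouse.

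Of the Acta2 probes close to the first, A_52_P210078 (mm7 chr19:33942440-33942499) read 0.11, 1.48 and -0.33 in sham and 0.00, 0.08 and 0.65 in adrenalectomized hearts. A_52_P239556, which is dimmer, read -3.15, -2.19 and -3.43 in sham and -3.08, -2.98 and -2.52 in adrenalectomized hearts. Like the first, both were highest in sham replicate 2 and next highest in adrenalectomized replicate 3, with differences of -0.17 and 0.06. These differences were 0.36 and 0.43 without sham replicate 2. A further probe, A_52_P644232, was well above background on 1 sham array and on no adrenalectomized array and was not tested.

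The remaining Acta2 probe did not follow that pattern. Its 60 bases extend over 3255 bases of the genome (mm7 chr19:33949738-33952992, minus strand). The sequence is shown because the pattern of this probe across mice differed from that of the other tested Acta2 probes.
Acta2 A_51_P450957: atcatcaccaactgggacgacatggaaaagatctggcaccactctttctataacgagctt

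It read 4.87, 5.05 and 5.23 in sham and 5.45, 5.03 and 5.09 in adrenalectomized hearts. Adrenalectomized replicate 1 was the highest array and sham replicate 1 the lowest, with sham replicate 2 in the middle. The difference was 0.14 with a standard error of 0.16 (limma over all probes, adjusted p = 0.744). Probes of other muscle actins are set beside it. The Actg2 probe (smooth muscle γ-actin) read 5.81, 5.88 and 6.23 in sham and 6.41, 5.91 and 6.02 in adrenalectomized hearts. The Actc1 probe (cardiac α-actin) read 8.41, 8.41 and 8.73 in sham and 8.75, 8.44 and 8.40 in adrenalectomized hearts. Both were likewise highest in adrenalectomized replicate 1 and next highest in sham replicate 3. The Acta1 probe (skeletal α-actin) had another order, with 3.91, 4.03 and 4.05 in sham and 4.51, 4.77 and 3.82 in adrenalectomized hearts, highest in adrenalectomized replicate 2. Whether A_51_P450957 also binds RNA of other actins was not tested.

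**Figure D2:**
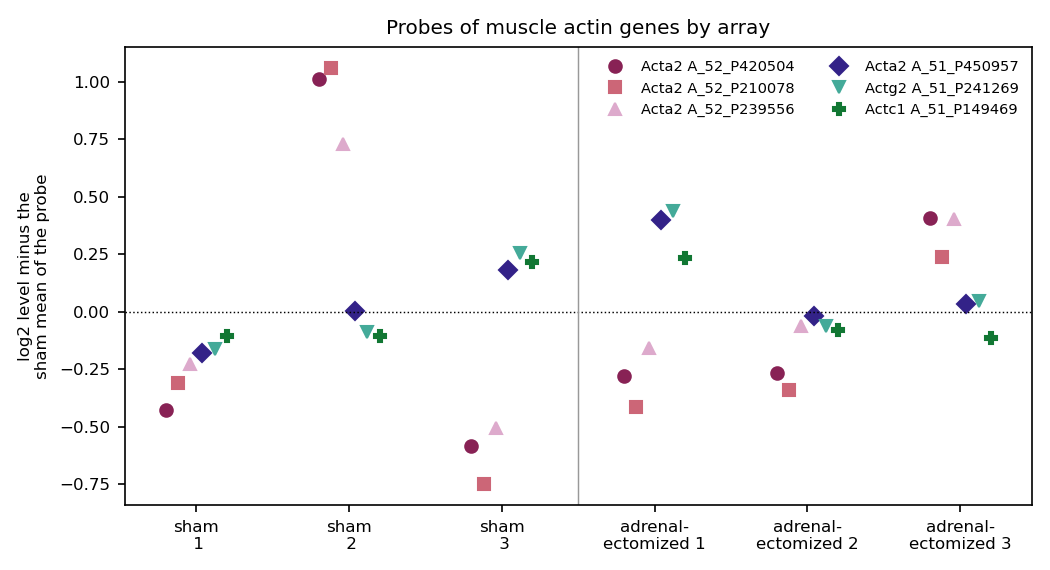
Level of each tested Acta2 probe and of 1 probe each of Actg2 and Actc1 on the 6 arrays (y axis, log2 level minus the sham mean of the same probe; x axis, array; 1 point per probe and array). In sham replicate 2, 3 Acta2 probes stand well above 0 while Acta2 A_51_P450957, Actg2 and Actc1 lie near 0; in adrenalectomized replicate 1 those 3 probes lie below 0 and the others above it.

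Smtn encodes smoothelin, an actin-associated protein of contractile muscle that was kept outside the contrast. It is shown with its sequence as the contractile protein gene in which sham replicate 2 was not high (mm7 chr11:3472834-3472893, minus strand).
Smtn A_51_P479786: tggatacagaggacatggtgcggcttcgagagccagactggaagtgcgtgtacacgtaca

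Smtn levels were 3.16, 3.28 and 3.43 in sham and 3.52, 3.17 and 3.48 in adrenalectomized hearts. The groups overlapped, and sham replicate 2 minus the mean of the other 5 arrays was -0.07. The difference of 0.10 had a standard error of 0.14 and a 95% confidence interval of -0.22 to 0.43 (limma, adjusted p = 0.799).

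Rgs5 encodes a regulator of G protein signalling that shortens the response of vessel cells to vasoconstrictors and marks pericytes. Its brighter probe, A_52_P136782 (mm7 chr1:169669366-169669425, plus strand), read 4.32, 4.09 and 4.06 in sham and 3.87, 3.83 and 4.02 in adrenalectomized hearts. The groups did not overlap, although sham replicate 3 and adrenalectomized replicate 3 were close. The difference was -0.25 with a standard error of 0.12 (95% confidence interval -0.53 to 0.03, limma adjusted p = 0.448), and the exact permutation p was 0.1. A second probe, A_51_P354934 (mm7 chr1:169671163-169671222), designed on another transcript record, read 2.39, 2.33 and 2.72 in sham and 2.95, 2.63 and 2.64 in adrenalectomized hearts. Its difference was 0.26 with a standard error of 0.15 (limma, adjusted p over all probes = 0.504). The 2 Rgs5 probes therefore differed in sign, and their mean gave a difference of 0.0055. Whether the probes differ from each other was not tested.

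Abcc9 encodes SUR2, the sulfonylurea receptor that forms the ATP-sensitive potassium channel of pericytes and smooth muscle with Kir6.1 and that of the cardiomyocyte with Kir6.2. Its brightest probe, A_51_P328850 (mm7 chr6:142676908-142676967, minus strand), read 2.26, 1.94 and 2.12 in sham and 2.47, 2.28 and 2.60 in adrenalectomized hearts. All 3 adrenalectomized hearts lay above all 3 sham hearts, with sham replicate 2 the lowest array. The mean was 2.10 ± 0.16 (SD, n = 3) in sham and 2.45 ± 0.16 (SD, n = 3) in adrenalectomized hearts. The difference was 0.35 with a standard error of 0.14 and a 95% confidence interval of 0.03 to 0.67, a level 1.27-fold higher after adrenalectomy (limma, adjusted p = 0.383). The exact permutation p was 0.1, and the difference was 0.26 without sham replicate 2.

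Over the alternatives that were run, only Abcc9 among the 9 genes passed the threshold, and it did so in 1 of them, with its adjusted p ranging from 0.0242 to 0.681. With the normexp background correction its difference was 0.61 (limma, adjusted p = 0.0242), in a fit that called 5919 of 16949 genes, 1188 higher and 4731 lower. Its other probes, designed on another transcript record, gave differences of the same sign. A_51_P328857 read 0.62, 0.26 and 0.64 in sham and 0.85, 0.49 and 0.89 in adrenalectomized hearts, and A_52_P616224 read -0.23, -0.63 and -0.12 in sham and 0.05, -0.19 and -0.12 in adrenalectomized hearts. Both differences were 0.24, with limma adjusted p values over all probes of 0.564 and 0.550. They were 0.11 and 0.09 without sham replicate 2. Sham replicate 2 was the lowest array in 3 of 3 Abcc9 probes.

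Pdgfrb encodes the receptor through which pericytes are recruited and kept on the vessel. Its probe A_51_P150964 read 3.62, 3.63 and 3.52 in sham and 3.44, 3.35 and 3.95 in adrenalectomized hearts. Adrenalectomized replicate 3 was the highest array and adrenalectomized replicates 1 and 2 the lowest, so the adrenalectomized group spanned the sham group. The difference was -0.01 with a standard error of 0.17 and a 95% confidence interval of -0.41 to 0.39 (limma, adjusted p = 0.985).

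Cspg4 encodes NG2, a proteoglycan of pericytes and of some smooth muscle cells. Its brighter tested probe, A_52_P278064 (mm7 chr9:56927188-56927247, plus strand), read 1.98, 2.08 and 1.94 in sham and 1.91, 2.13 and 2.35 in adrenalectomized hearts. The groups overlapped, and the difference was 0.13 with a standard error of 0.14 (95% confidence interval -0.19 to 0.46, limma adjusted p = 0.730). It was -0.09 with the slide as a block, where only adrenalectomized replicate 1 is compared with the sham hearts. The second tested probe, A_51_P160824, gave 0.09 (limma, adjusted p over all probes = 0.846), or 0.22 without sham replicate 2, and A_52_P539873 was well above background on 2 adrenalectomized arrays only and was not tested.

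**Figure D3:**
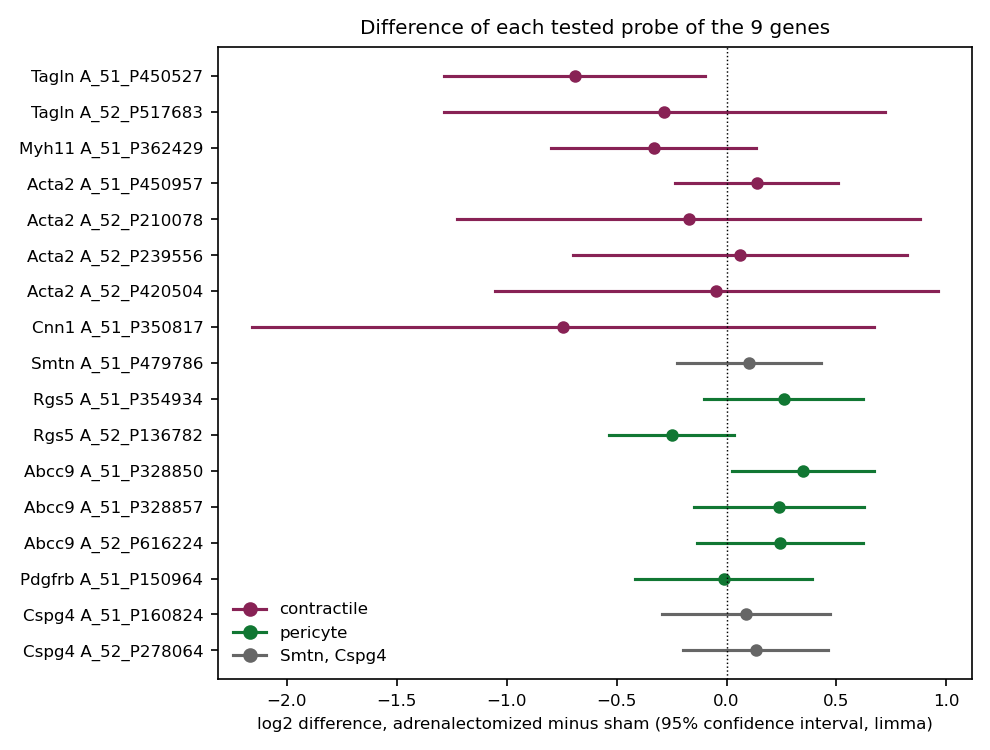
Difference of each of the 17 tested probes (x axis, adrenalectomized minus sham on the log2 scale; points, limma estimates; bars, 95% confidence intervals; y axis, gene and probe). The widest interval is that of Cnn1, the interval of Acta2 A_51_P450957 is narrower than those of the other Acta2 probes, the 2 Rgs5 probes fall on opposite sides of 0, and the 3 Abcc9 probes are all above 0.

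Set side by side, the contractile genes had a median difference of -0.51 and the pericyte genes a median of -0.01. Of the contractile genes 4 of 4 were below 0 and of the pericyte genes 2 of 3, beside 44.2% of all genes. The gap between the medians, contractile minus pericyte, was -0.50. Per array, the median shift of the 4 contractile genes from their sham means was -0.31, 0.79 and -0.49 in sham and -0.74, -0.34 and -0.36 in adrenalectomized hearts. That of the 3 pericyte genes was 0.15, -0.07 and -0.07 in sham and -0.15, -0.24 and 0.35 in adrenalectomized hearts. Contractile minus pericyte was -0.46, 0.86 and -0.42 in sham and -0.59, -0.10 and -0.71 in adrenalectomized hearts. Sham replicate 2 alone was above 0, and sham replicates 1 and 3 lay inside the range of the adrenalectomized hearts. Without sham replicate 2 the medians were -0.08 for the contractile and 0.01 for the pericyte genes, and the gap was -0.09. The differences were then -0.40 for Tagln, -0.17 for Myh11, 0.01 for Cnn1 and 0.14 for Acta2, for which another probe then stood. Those of Rgs5, Abcc9 and Pdgfrb were -0.28, 0.26 and 0.01.

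The slide and the groups overlap only in part, since slide 1 is the only one with both. Within slide 1, where adrenalectomized replicate 1 stands alone against the 3 sham hearts, the contractile median was -0.74, the pericyte median -0.15 and the gap -0.59. The other slide holds no sham array. With the slide as a fixed block, the difference therefore again compares adrenalectomized replicate 1 alone with the 3 sham hearts. In that fit the differences were -0.88 for Tagln, -1.06 for Cnn1, -0.28 for Acta2 and 0.23 for Smtn. For Rgs5, Abcc9 and Pdgfrb they were -0.29, 0.37 and -0.15. With the slide as a random block the contractile and pericyte medians were -0.50 and -0.01, and 0 of the 9 genes passed the adjusted threshold.

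Sham replicate 2 was the highest of the 6 arrays in 4 of 4 contractile genes and in 0 of 3 pericyte genes, beside 20.5% of all genes. It stood 2.26 above the mean of the other 5 arrays in Cnn1, 1.24 in Acta2, 1.10 in Tagln and 0.58 in Myh11. Of all genes, 1.2% stood at least 1 log2 unit above that mean in this mouse. The same value was 0.07 for Rgs5, 0.05 for Pdgfrb, 0.02 for Cspg4 and -0.41 for Abcc9. Over probes, sham replicate 2 was highest in 7 of 8 contractile probes and in 0 of 6 pericyte probes, and it was lowest in 4 of 6 pericyte probes, beside 20.6% and 20% of all probes. Probes of 1 gene are not independent: 3 of those 7 were of Acta2 and 3 of those 4 of Abcc9. Over genes, it was lowest in 1 of 3 pericyte genes, beside 3073 of all 16949 genes. This is a description of 1 mouse and carries no test.

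Markers of other cells varied alongside these values. The atrial cardiomyocyte markers (Nppa, Myl4, Myl7, Sln and Bmp10) were highest in sham replicate 2 in 5 of 5 genes, beside 20.5% of all genes. In that order, their differences were -0.71, -0.50, -0.54, -0.62 and -1.37. Without sham replicate 2 these differences were -0.55, -0.36, -0.39, -0.45 and -0.89. The median shift of the 5 markers was -0.02, 0.32 and -0.33 in sham and -0.57, -0.55 and -0.72 in adrenalectomized hearts. The log2 of their summed level ranged from 10.41 to 11.04 in sham and from 10.06 to 10.14 in adrenalectomized hearts. All 5 had lower levels in every adrenalectomized heart than in any sham heart, beside 8.15% of all genes, and none passed the adjusted threshold. The elastic artery wall markers (Eln and Fbln5 among them) were lower in 7 of 7 genes, beside 44.2% of all genes, with a median of -0.17. Their median shift was 0.16 in sham replicate 2 and -0.10 and 0.04 in the other sham hearts. The log2 of their summed level ranged from 5.91 to 6.18 in sham and from 5.62 to 6.02 in adrenalectomized hearts. Adipocyte markers were higher in 7 of 7 tested genes with a median of 1.39, beside 9465 of all 16949 genes, and 0 passed the adjusted threshold. Their median shift was -1.17, 0.86 and 0.31 in sham and 0.19, 2.22 and 1.75 in adrenalectomized hearts. Adrenalectomized replicate 1, on the slide of the sham hearts, lay within the sham range, and the part of the slide was not tested. The log2 of the summed level of these markers ranged from 8.34 to 8.77 in sham and from 8.62 to 9.47 in adrenalectomized hearts. Fibroblast and endothelial markers had medians of -0.22 and -0.18. The part of these markers in the results was not tested, and in whole heart RNA fewer cells of a type and less RNA per cell cannot be told apart.

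**Figure D4:**
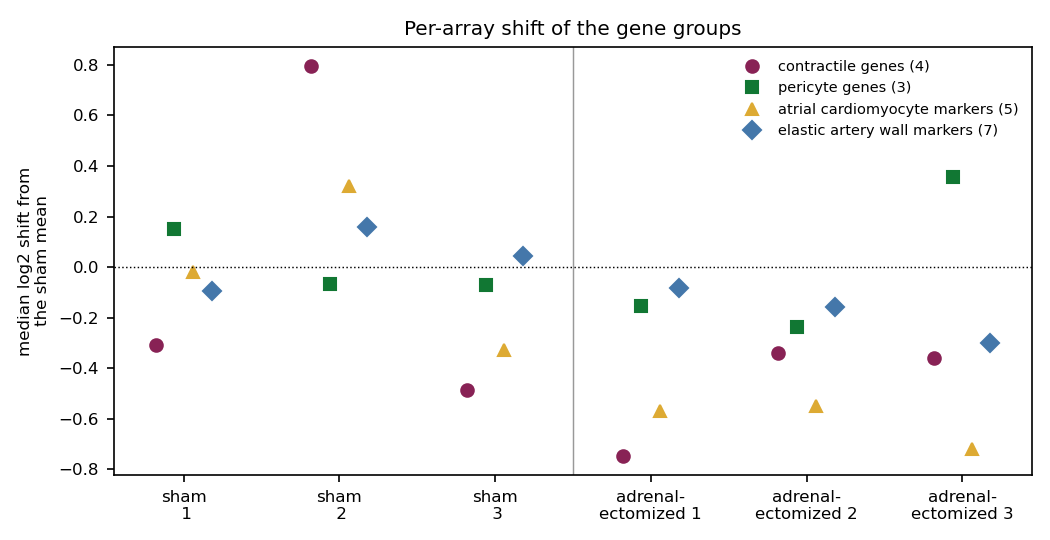
Median shift of 4 gene groups on each array (y axis, median over the genes of the log2 level minus the sham mean of each gene; x axis, array; 1 point per group and array). Contractile genes reach 0.79 in sham replicate 2 and lie between -0.74 and -0.31 on the other arrays; pericyte genes stay between -0.24 and 0.35; atrial markers lie between -0.72 and -0.55 in the adrenalectomized hearts.

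Other genes of the contractile apparatus and its cytoskeleton were taken from a list of 19, of which 18 were tested. None passed the adjusted threshold. At an unadjusted p under 0.05, 3 of 18 were lower and 0 higher, beside 6.12% and 6.07% of all genes. Of the 18 differences 14 were below 0, beside 44.2% of all genes, with a median of -0.11. Cald1 (caldesmon, which restrains actomyosin) read -0.53, -0.44 and -0.80 in sham and -1.63, -1.36 and -1.40 in adrenalectomized hearts. The groups were well separated, by -0.87 with a standard error of 0.14 (limma, adjusted p = 0.131), 1.83-fold higher in sham. Its other probe gave -0.41. Synm (synemin, an intermediate filament protein) had a difference of -1.22 (adjusted p = 0.384) with overlapping groups, and -0.74 without sham replicate 2. A dimmer Synm probe gave -0.71 with groups that did not overlap, and -0.38 without sham replicate 2. Ppp1r14a (CPI-17, an inhibitor of myosin phosphatase) had -0.33 (adjusted p = 0.314).

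In 5 of the 18 genes the adrenalectomized hearts all lay below the sham hearts, beside 8.15% of all genes. These were Cald1, Ppp1r14a, Tpm2, Lmod1 and Myl9, and the last 3 are named after their values were seen. Tpm2 (β-tropomyosin) differed by -0.30 and Lmod1 (leiomodin 1, an actin filament nucleator) by -0.26, and without sham replicate 2 these were -0.19 and -0.12. Myl9 (the regulatory light chain of smooth muscle myosin) differed by -0.84 on 2 sham arrays, since its spot on sham replicate 1 was marked as an outlier and left out, and by -0.14 without sham replicate 2. Sham replicate 2 was the highest array in 10 of the 18 genes, beside 20.5% of all genes.

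Transcription factors and coactivators of the smooth muscle programme were listed as 14 genes, of which 12 were tested. No factor passed the adjusted threshold. At an unadjusted p under 0.05, 5 of 12 were lower and 1 was higher, beside 6.12% and 6.07% of all genes. The median difference was -0.32, with 9 of 12 below 0, beside 44.2% of all genes. Srf, the factor that binds the promoters of contractile genes, read 3.38, 3.58 and 3.22 in sham and 3.22, 3.18 and 3.37 in adrenalectomized hearts, a difference of -0.14 (limma, adjusted p = 0.697) that was -0.05 without sham replicate 2, its highest array. Myocd, its coactivator in heart and smooth muscle, read 1.71, 1.60 and 1.18 in sham and 1.10, 0.96 and 1.07 in adrenalectomized hearts. All 3 adrenalectomized hearts were below the sham hearts, and the difference was -0.45 with a standard error of 0.16 (limma, adjusted p = 0.343). A dimmer Myocd probe gave -0.08. Unlike the contractile genes, Myocd was not highest in sham replicate 2, and its difference without that mouse was -0.40.

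Prrx1 (a homeobox factor of mesenchymal cells) differed by -0.64 with a standard error of 0.13 (limma, adjusted p = 0.191). Of its 4 tested probes 3 were lower, and a dim one differed by 0.98. Mef2c (a MADS-box factor of muscle) differed by -0.77 (adjusted p = 0.282) and Gata6 (a zinc finger factor of heart and vessel) by -0.42 (adjusted p = 0.283). Mef2c and Gata6 are also expressed by cardiomyocytes. The groups did not overlap, with adrenalectomized lower, in 4 of the 12 factors (these 3 and Myocd), beside 8.15% of all genes. The other factors at an unadjusted p under 0.05, named after their values were seen, were the Krüppel-like factors Klf4, at -0.51 (adjusted p = 0.360), and Klf5, at 0.66 (adjusted p = 0.380), the only one of them that was higher. Klf5 was dim and its groups overlapped, at -3.22, -3.21 and -3.52 in sham and -3.21, -2.19 and -2.55 in adrenalectomized hearts.

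Other pericyte genes came from a list of 18, of which 17 were tested and Ndufa4l2 was not found by name. None passed the adjusted threshold. At an unadjusted p under 0.05, 1 of 17 was lower and 0 higher, beside 6.12% and 6.07% of all genes. Of the 17 differences, 9 were above 0 and 8 below, with a median of 0.01. Ebf1 (a transcription factor of mural and B cells) differed by -0.33 (limma, adjusted p = 0.361). Vtn (vitronectin, a matrix protein that pericytes secrete) differed by 0.28 (adjusted p = 0.441) and P2ry14 (a receptor for UDP-sugars) by 0.23 (adjusted p = 0.470). Vtn and P2ry14 were lowest in sham replicate 2, as Abcc9 was, and the Vtn difference was 0.18 without that mouse. The groups did not overlap in 4 of the 17 genes, 3 higher (Vtn, P2ry14 and Kcne4) and 1 lower (Ebf1), beside 10.1% and 8.15% of all genes. Kcne4, a potassium channel subunit named here after its values were seen, differed by 0.17.

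The other listed subunits of ATP-sensitive potassium channels gave no called difference. Kcnj8, which encodes Kir6.1, read 4.84, 4.84 and 4.54 in sham and 4.94, 4.65 and 5.18 in adrenalectomized hearts, a difference of 0.18 with a standard error of 0.17 (limma, adjusted p = 0.692). Kcnj11, which encodes Kir6.2, differed by -0.20 (adjusted p = 0.625), and Abcc8, which encodes SUR1, by -0.13 (adjusted p = 0.729), or -0.05 without sham replicate 2. The groups overlapped for all 3.

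Ligands and receptors of mural cell and endothelial signalling were listed as 30 genes, and all were tested. The list covers platelet-derived growth factors, angiopoietins, Notch and TGF-β components. It includes endothelial receptors and Notch targets, so it is not confined to signals that mural cells receive. No gene of this list passed the adjusted threshold. At an unadjusted p under 0.05, 3 of 30 were lower and 0 higher, beside 6.12% and 6.07% of all genes. The median difference was -0.12, with 19 of 30 below 0, beside 44.2% of all genes. Angpt1, the ligand by which mural cells steady the endothelium, read -1.21, -1.0 and -1.40 in sham and -2.23, -1.99 and -1.98 in adrenalectomized hearts. The groups were well separated, by -0.86 with a standard error of 0.14 (limma, adjusted p = 0.133), and its second probe gave -1.26. S1pr1, an endothelial receptor for sphingosine 1-phosphate, differed by -0.54 (adjusted p = 0.237) and Hey2, a Notch target of arteries and heart muscle, by -0.41 (adjusted p = 0.386).

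**Figure D5:**
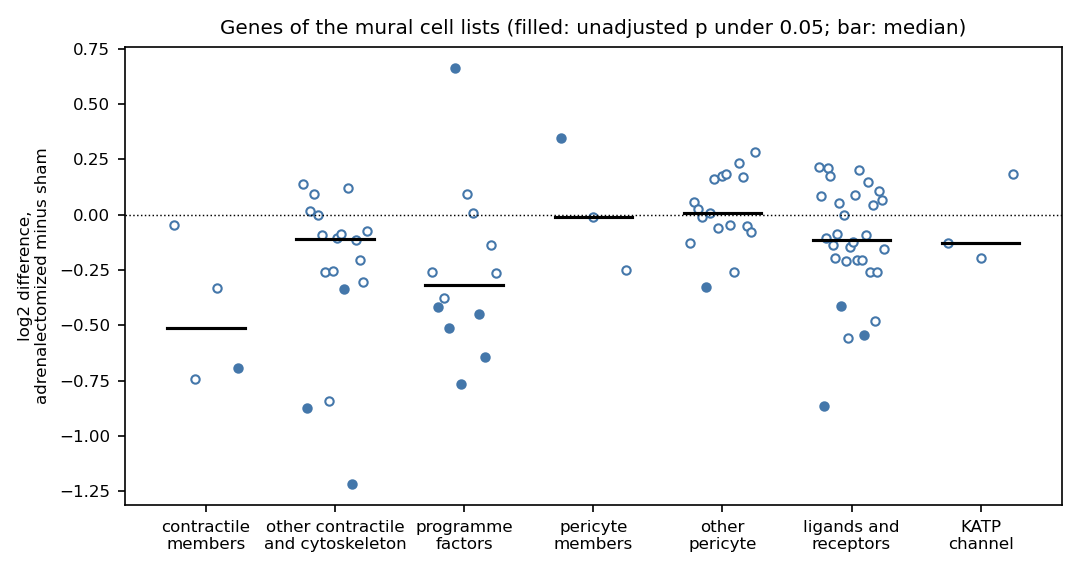
Difference of each tested gene in the member groups and in the 5 other lists of mural cell genes (y axis, adrenalectomized minus sham on the log2 scale; x axis, list; filled points, unadjusted p under 0.05 in limma; bars, list medians). Medians are -0.51 for the contractile members, -0.11 for the other contractile genes, -0.32 for the factors, -0.01 for the pericyte members, 0.01 for the other pericyte genes, -0.12 for ligands and receptors and -0.13 for the channel subunits.

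Apart from the members, the genes whose levels followed the mean profile of the 4 contractile genes most closely were sought among 12599 named genes, by Pearson's r over the 6 arrays. They were Sema6b (r = 0.985), Syn2 (0.982), Plekha4 (0.979), Pcolce (0.979) and Apcdd1 (0.976). Sema6b read -0.49, 0.04 and -0.62 in sham and -0.59, -0.53 and -0.51 in adrenalectomized hearts, so that its profile too was set by a high value in sham replicate 2. The genes nearest to the 3 pericyte genes were Sfxn2 (r = 0.985), Rab11fip5 (0.981), Rgs7bp (0.979), Slc38a4 (0.978) and Fam81a (0.976). Rab11fip5 read 4.38, 4.16 and 4.17 in sham and 4.25, 4.10 and 4.44 in adrenalectomized hearts, highest in adrenalectomized replicate 3 as Pdgfrb was. These coefficients rest on 6 arrays that share their labelling and scaling, and the best of so many genes would be close to any profile.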

How the data were processed

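The 6 arrays are 60-base Agilent arrays designed on mm7. The deposited processed signal is an intensity on a linear scale that the authors obtained with Feature Extraction 9.5.3.1, per the file headers (9.5 per the submitters' processing notes), background-subtracted and not normalized between arrays. On all 45018 spots the deposited value table gave the intensity of the scanner file unaltered, so it is linear and uncentred, with column medians of 70.8, 68.1 and 84.4 (sham) and 75.1, 92.2 and 80.9 (adrenalectomized).

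Signals were taken as log2 and each array's 75th percentile was set to 0. Left out were control spots and the 80 to 133 spots marked as outliers on an array. Repeat spots of a probe were averaged. A probe entered the test if 1 group or both had it well above background on every array, and the tested probe with the highest mean stood for its gene. Of 41174 probes, 22951 were named through RefSeq accessions (GRCm38.p6 table) and 18223 kept the name in the file. No mm7 annotation was used, so exons and UTRs were not assigned. Probe sequences and positions are those of the array files.

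Differences were fitted with limma 3.58.1 (lmFit, eBayes) in R 4.3.3 over all genes. On simulated data for this comparison, with noise independent between arrays, 188 of 200 genes shifted by 1.5 log2 units were recovered. Of the unshifted genes among the 16949, 15 were called falsely. The largest difference among the 9 genes was smaller, at -0.74, so this does not tell how often such a difference would be called. Python 3.11.15 ran the rest. The number of arrays limits the precision: the median standard error of a difference was 0.14.

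The members and lists were chosen with earlier results of these data known. Named genes were the 9 members, the 3 genes of smallest p in each list, Srf, Myocd, all channel subunits and the 5 genes most like each profile. Alternatives covered the background correction, scaling, dim probes, probe choice, slide, replicate block, variance model, array weights and each array left out. Lymphocyte, erythroid, macrophage, cardiomyocyte, skeletal muscle, epicardial and Schwann cell or neuron markers had median differences of 0.43, 0.52, -0.07, -0.17, -0.18, -0.00 and -0.02, none with a gene past the threshold.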

Additional observations from a re-analysis of the deposited data

How the results depend on the processing

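Tagln, Myh11 and Smtn kept their direction and missed the threshold under all 21 alternatives tried for each. Leaving out each array in turn gave ranges of -0.89 to -0.40 for Tagln, -0.34 to 0.19 for Acta2, -1.19 to 0.0149 for Cnn1, -0.20 to 0.10 for Pdgfrb, -0.66 to -0.08 for the contractile median, -0.65 to -0.09 for contractile minus pericyte, and -0.12 to -0.0652 for ligands and receptors. Without sham replicate 2, Acta2 read 0.14 because another probe then stood for the gene. Normexp gave 0.48 for Acta2 (that other probe), 0.13 for Rgs5, 0.32 for Pdgfrb and for the pericyte median, 0.14 for the other contractile genes, -0.0139 for ligands and receptors and 0.20 for the channel subunits, and called 1 of the 9 genes (Abcc9). The mean of the probes gave 0.0055 for Rgs5. On slide 1 alone Acta2 was 0.40 (that other probe). The slide as a fixed block and slide 1 alone both gave -0.0918 for Cspg4, -0.14 for the factors, 0.0919 for the other pericyte genes and 0.0333 for the channel subunits. In both, the difference rests on 1 adrenalectomized array, which slide 1 alone assumes to vary like the sham arrays. The cause of these changes was not tested beyond the named change of probe.

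The count of all genes called, 7 (5 higher, 2 lower), was 5919 (1188 higher, 4731 lower) with normexp, 75 (38 higher, 37 lower) with array weights, 43 (41 higher, 2 lower) on slide 1 alone, 34 at a threshold of 0.1, and 13 (6 higher, 7 lower) with a variance trend and robust estimation. It was 2 (0 higher) with the percentile over detected probes, with the mean of probes and with outlier spots kept, and 1 (0 higher) with no filter, with probes above background on all 6 arrays, with the slide as a fixed block and with every probe tested. Leaving out an array gave 1 to 42, the highest without adrenalectomized replicate 1. With the replicate block it was 1, and 0 of the 9 genes were called. Same-numbered arrays correlated at 0.16, 0.16 and -0.16 in their deviations from the group means, and differently numbered ones at -0.31 to 0.18. With 3 arrays per group, these values cannot settle whether the replicate numbers pair the arrays.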
